A study of Rattus norvegicus with 18 samples.

Results

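Transcripts of 6 genes that inflammatory cytokines are known to induce were examined in dorsal root ganglia (DRGs) after total knee arthroplasty (TKA) in rats. They were *Il1r1* (ENSRNOT00000082146), *Ifitm3* (ENSRNOT00000020265), *Steap4* (ENSRNOT00000011432), *Lrg1* (ENSRNOT00000074993), *Tnfaip6* (ENSRNOT00000070792), and *Apod* (ENSRNOT00000073330). They were chosen by name, as 6 of the 41078 transcripts counted, and their levels were read in all 18 rats to see which were raised evenly over the TKA rats and which in few of them. All of them had been drawn by the study from its own list for TKA against sham in these same rats. That they were higher in TKA rats is therefore no independent evidence of a response.

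The ganglia, where the cell bodies of sensory neurons lie beside the spinal cord, were the left L3 and L4 DRGs of Sprague Dawley rats. There were 6 naive rats with no procedure, 6 sham rats given anesthesia, a skin incision, and sutures, and 6 rats given anesthesia and the full knee replacement. Each group held 3 rats labelled male and 3 labelled female, and the operated rats were sampled 24 h after surgery. Ages are not given in the sources used here. Sham rats had no surgery of the joint, so opening the knee and placing the implant were not separated from each other. Total counts ranged from 20230562 to 29343899 per rat.

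Some libraries and 1 label need mention before the levels. Neurofilaments are structural proteins of large sensory neurons, and the mean log2 CPM of their transcripts (*Nefl*, *Nefm*, *Nefh*) was 12.51 in TKA rat 2 and 12.80 in TKA rat 6. It was 13.21 to 13.66 in the other 4 TKA rats and 13.47 to 13.91 in the naive and sham rats. TKA rats 1 (13.21) and 5 (13.28) were thus also below every naive and sham rat, though less so. TKA rat 4 was labelled female but had 3472 counts on 3 transcripts that were otherwise found in rats labelled male, where the lowest sum was 3097, against at most 1 count in any other rat labelled female. Among naive and sham rats, 1 transcript was present only in those labelled female, and TKA rat 4 had 0 counts on it. Other rats labelled female had at most 627. Fold-changes of the 6 transcripts and of the pathway lists are given with and without TKA rats 2 and 6, and sex interactions with either label of TKA rat 4.

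Interleukin-1 and tumor necrosis factor act through NF-κB, interleukin-6 acts through STAT3 and the C/EBP factors, and interferons act through receptors and factors of their own. Within hours these factors switch on a set of early response genes in many tissues, among them secreted acute-phase proteins and proteins that hold iron or remodel the matrix. In a sensory ganglion such genes can be used by neurons and by the Schwann cells, satellite glia, fibroblasts, endothelial cells, and macrophages around them. The 6 genes cover several places in this response. *Il1r1* encodes the signaling receptor of interleukin-1. *Ifitm3* encodes a membrane protein that limits virus entry, and *Steap4* encodes a reductase of iron and copper first known as a TNF-induced protein of fat cells. *Lrg1*, *Tnfaip6*, and *Apod* encode secreted proteins. These are an acute-phase glycoprotein, a hyaluronan-binding protein, and a lipocalin that carries lipids in peripheral nerve.

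Motifs of these factors are printed from the promoters to show where the genes' starts hold such letters. Each promoter window covered 300 bases around the gene start, most of them upstream, taken from RefSeq (assembly GRCr8), with 33469 windows in all. All 6 genes were matched by symbol. The RefSeq start may differ from that of the Ensembl transcript counted. Capitals mark the motif matches, and each sequence reads 5′ to 3′ on the strand of its gene. The stretch of *Il1r1*, on the + strand at chr9:50034233-50034272, holds an NF-κB match. That of *Ifitm3*, on the − strand at chr1:205541768-205541817, holds an interferon-stimulated response element (ISRE) and then a STAT match. That of *Steap4*, on the − strand at chr4:27054784-27054962, holds in turn an NF-κB match, an interleukin-6 response element, a STAT match, and a C/EBP match. That of *Lrg1*, on the − strand at chr9:1037061-1037147, holds an NF-κB match and an interleukin-6 response element.
Il1r1: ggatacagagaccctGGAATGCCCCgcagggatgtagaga
Ifitm3: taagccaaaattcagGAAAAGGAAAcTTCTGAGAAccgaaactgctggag
Steap4: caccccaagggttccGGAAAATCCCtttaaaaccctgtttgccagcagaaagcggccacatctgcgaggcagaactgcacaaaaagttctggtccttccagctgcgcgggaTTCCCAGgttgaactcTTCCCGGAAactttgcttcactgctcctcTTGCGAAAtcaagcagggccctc
Lrg1: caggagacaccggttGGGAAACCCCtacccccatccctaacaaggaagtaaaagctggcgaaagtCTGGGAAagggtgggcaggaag

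Both strands were searched. The NF-κB matches of *Il1r1* and *Steap4* and the interleukin-6 response element of *Steap4* read on the strand opposite to the gene. The STAT motif, TTCNNNGAA, was in the windows of *Ifitm3* and *Steap4* and in 8.87% of all windows. The interleukin-6 response element, CTGGGAA, was in those of *Steap4* and *Lrg1* and in 11.3% of all. The ISRE, read as GAAA, any 2 letters, and GAAA, was in that of *Ifitm3* and in 3.92% of all. The NF-κB consensus was in those of *Il1r1*, *Steap4*, and *Lrg1* and in 4.18% of all, and the C/EBP motif, TTGCNNAA, was in that of *Steap4* and in 10.6% of all. The STAT motif reads alike on both strands, and no 2 of the matches shown overlap. No match to these 5 motifs was found in the windows of *Tnfaip6* and *Apod*. A match describes letters and does not show that a factor binds there.

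The 6 transcripts fell into several patterns among the TKA rats. *Ifitm3* and *Il1r1* were spread over the TKA rats, *Il1r1* less evenly. *Steap4*, *Lrg1*, and *Apod* were above every sham and naive rat in all 6 TKA rats, with most of the excess in TKA rats 2 and 6. *Tnfaip6* was high in other TKA rats and reached control levels in 2 of them. Levels are CPM, counts scaled to library size over the 18 rats, and are compared only within a transcript, since transcript lengths were not known.

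**Figure D1:**
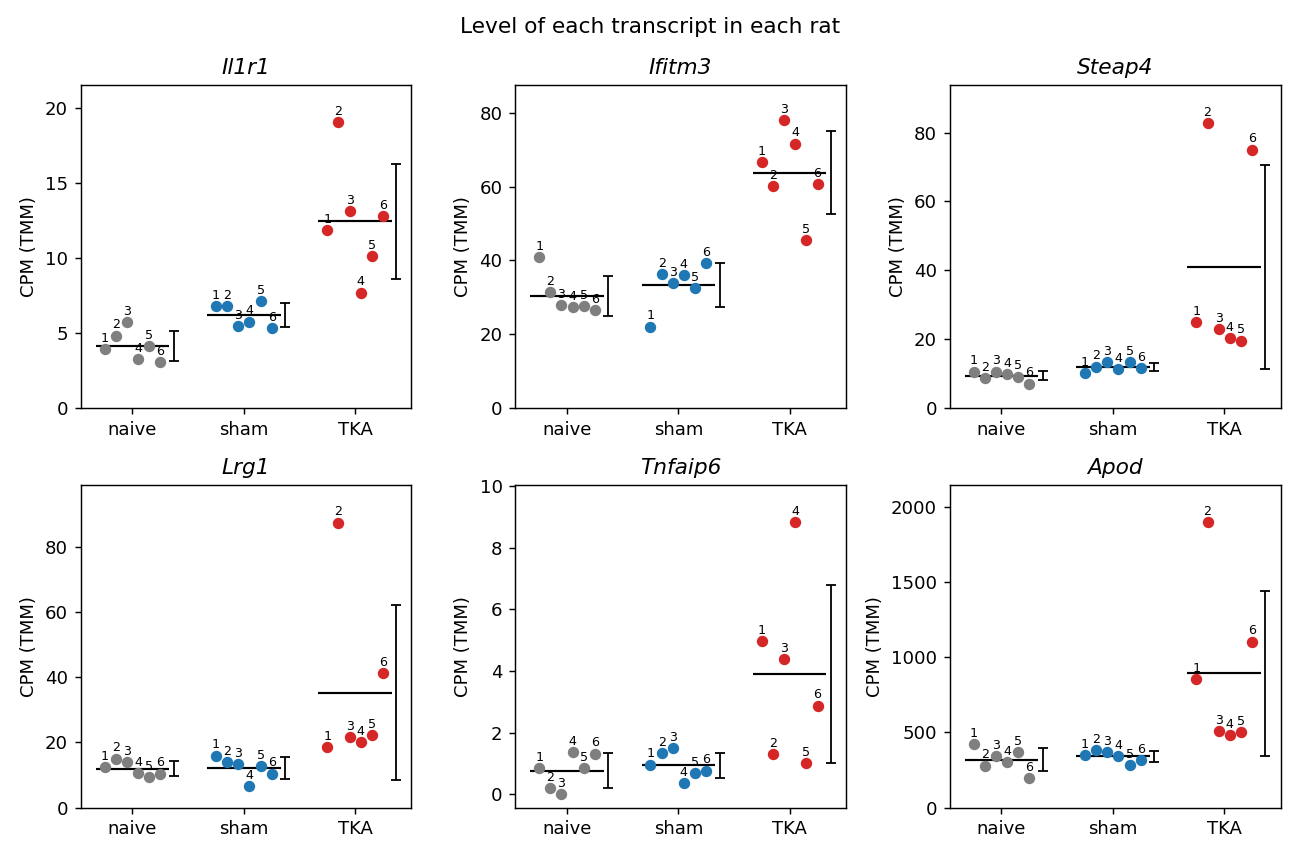
Level of each transcript in each rat, in CPM on a linear axis, by group (n = 6). Each point is 1 rat with its number, horizontal lines are group means, and bars are the mean ± SD. All 6 TKA points lie above all control points for every transcript but *Tnfaip6*, and TKA rats 2 and 6 stand far above the other TKA rats for *Steap4* and *Lrg1*.

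The receptor *Il1r1* was measured at 3.93, 4.83, 5.71, 3.25, 4.12, and 3.07 CPM in naive rats 1 to 6. In sham rats 1 to 6 it was 6.81, 6.77, 5.47, 5.77, 7.13, and 5.30 CPM, and in TKA rats 1 to 6 it was 11.9, 19.1, 13.2, 7.69, 10.1, and 12.8 CPM. The TKA rats did not overlap the other groups, and the lowest of them, rat 4, lay just above the highest sham rat. The group means were 4.15 ± 0.99 in naive, 6.21 ± 0.79 in sham, and 12.5 ± 3.83 CPM in TKA rats (SD, n = 6). The coefficient of variation was 30.7% among TKA rats, against 12.7% in sham and 23.9% in naive rats. TKA rats 2 and 3 held 52.9% of the excess over the sham mean, summed over the 6 TKA rats. Exactly equal rats would give 2 of 6, but the 2 were picked as the highest, so any spread between rats raises this share.

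*Ifitm3*, the virus restriction gene, was the most evenly raised by this share. Naive rats 1 to 6 had 41.0, 31.3, 27.9, 27.4, 27.7, and 26.6 CPM, sham rats had 22.0, 36.2, 33.8, 35.9, 32.5, and 39.2 CPM, and TKA rats had 66.7, 60.1, 78.0, 71.7, 45.5, and 60.6 CPM. The lowest TKA rat was above the highest control, and TKA rats 2 and 6, lowest in neurofilament, lay in the lower part of the group. The coefficient of variation was 17.6% among TKA rats, close to the 17.97% of sham and 18.1% of naive rats. The means were 30.3 ± 5.49, 33.3 ± 5.98, and 63.8 ± 11.2 CPM (SD, n = 6), and the 2 highest TKA rats, 3 and 4, held 45.5% of the summed excess.

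*Steap4*, the metalloreductase, was narrow in both control groups and split among TKA rats. It ran from 7.06 to 10.6 CPM in naive rats (median 9.49) and from 10.1 to 13.3 CPM in sham rats (median 11.8). TKA rats 1 to 6 had 24.8, 82.8, 22.9, 20.3, 19.6, and 75.0 CPM. Rats 1, 3, 4, and 5 were 1.64 to 2.08 times the sham mean, while rats 2 and 6 were 6.94 and 6.29 times that mean and held 77.1% of the excess. The coefficient of variation was 10.5% in sham and 72.4% in TKA rats, around means of 11.9 ± 1.26 and 40.9 ± 29.6 CPM (SD, n = 6).

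*Lrg1*, the acute-phase glycoprotein, followed the same rats. Naive rats ran from 9.48 to 15 CPM (median 11.5) and sham rats from 6.62 to 15.9 CPM (median 13.1). TKA rats 1 to 6 had 18.5, 87.3, 21.7, 20.1, 22.3, and 41.3 CPM. All of them exceeded the controls, by a small margin in rat 1, and rat 2 alone held 54.4% of the excess. Rats 2 and 6 together held 75.5%, and the means were 12.2 ± 3.25 in sham and 35.2 ± 26.9 CPM in TKA rats (SD, n = 6).

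*Apod*, the lipocalin, was the most abundant of these transcripts in counts, with at least 4050 in every rat. Naive rats ran from 197 to 422 CPM (median 322) and sham rats from 285 to 383 CPM (median 346). TKA rats 1 to 6 had 856, 1898, 512, 483, 501, and 1104 CPM. None overlapped the controls, and rats 3, 4, and 5 lay between 1.42 and 1.498 times the sham mean against 5.55 times in rat 2. Rats 2 and 6 held 70.2% of the excess, rat 1 a further 15.6%, and the means were 342 ± 35.8 in sham and 892 ± 552 CPM in TKA rats (SD, n = 6).

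*Tnfaip6*, whose protein binds hyaluronan and is made where tissue is inflamed, rested on few reads. TKA rats 1 to 6 had 119, 25, 127, 185, 26, and 66 counts, or 4.96, 1.30, 4.38, 8.84, 1.01, and 2.87 CPM. Sham rats ran from 8 to 34 counts, or from 0.36 to 1.49 CPM (median 0.86), and naive rats from 0 to 30 counts, or from 0 to 1.37 CPM (median 0.84). All but 2 of the TKA rats were above every control, and rats 2 and 5 lay within the control range. Rats 4 and 1 held 67.1% of the excess, and rat 2, the highest rat for *Il1r1*, *Steap4*, *Lrg1*, and *Apod*, was next to the lowest for *Tnfaip6*.

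**Figure D2:**
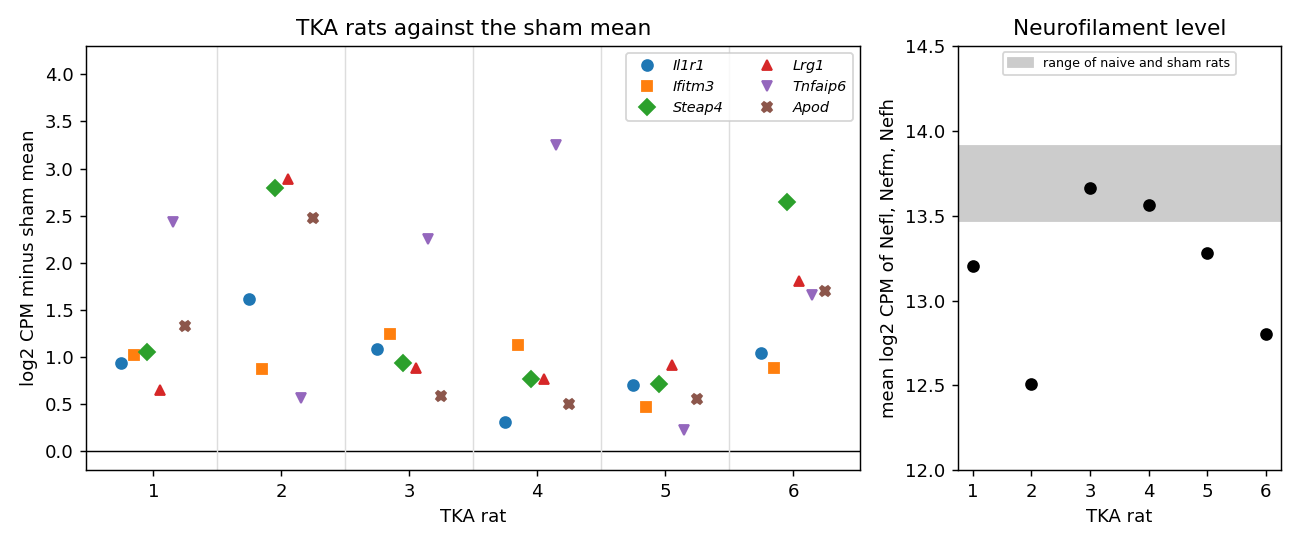
Left, log2 CPM of each transcript in each TKA rat minus the sham mean of log2 CPM, with 1 marker per transcript and the line at 0 for the sham mean. Right, mean neurofilament log2 CPM (*Nefl*, *Nefm*, *Nefh*) in the same rats, with the naive and sham range of 13.47 to 13.91 in grey. In rats 2 and 6 *Steap4*, *Lrg1*, and *Apod* stood 1.70 to 2.88 above the sham mean, while *Ifitm3* stood 0.87 and 0.89 above it.

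Markers of other cells moved with these rats. Over all 18 rats, TKA rats 2 and 6 had the highest summed levels of 11 of the 12 myelinating Schwann cell markers (97620 and 54580 CPM), against 7111 to 18840 CPM in naive and sham rats and 11040 to 18810 CPM in the other TKA rats. Their sums were also the highest for 3 of 11 endothelial markers (472 and 268 CPM against 66.9 to 125 in controls), 6 of 10 fibroblast markers (1506 and 1229 CPM against 291 to 664), and 8 of 13 macrophage markers (277 and 114 CPM against 35.3 to 95.9). So were they for 4 of 6 satellite glia markers (2741 and 723 CPM against 291 to 673), through *Glul* and *Gfap*, while *Fabp7* was the lowest of all rats in rat 6 and *Apoe* was at most 2.03 CPM in any rat. Fibroblast sums in TKA rats 1, 3, 4, and 5 were 579 to 814 CPM, against medians of 449 (naive) and 447 (sham). Their macrophage sums were 75.2 to 91.8 CPM against medians of 57.2 and 52.9. Their endothelial sums were 87.4 to 101 CPM against 80.5 and 91, and satellite glia sums 446 to 537 CPM against 368 and 375. The sensory neuron list, with 4 of 12 named, was mostly the 3 neurofilaments, and *Calca*, the precursor of a pain peptide, was the other. Rat 2 had 70.4 CPM of it, the lowest of all rats, and rat 6 had 459 CPM. *Calca* was at 421 to 629 CPM in controls and 657 to 700 CPM in TKA rats 1, 3, 4, and 5. The sum of 4 of 10 skeletal muscle markers was 8558, 902, and 887 CPM in TKA rats 2, 3, and 6, against at most 608 CPM in controls. Only these markers carried a name in the tables used, no one of them was at 0 over a whole group, and none of the 9 neutrophil markers was named. In RNA of whole ganglia, a change in the number of cells of a type and a change in RNA per cell cannot be told apart. The part of these other cells in the levels of *Steap4*, *Lrg1*, and *Apod* was not tested.

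TKA was compared with sham to separate the knee replacement from anesthesia and a skin wound. The log2 fold-change was 1.01 ± 0.21 (SE) for *Il1r1*, 0.94 ± 0.15 for *Ifitm3*, 1.78 ± 0.38 for *Steap4*, 1.53 ± 0.39 for *Lrg1*, 2.06 ± 0.54 for *Tnfaip6*, and 1.39 ± 0.31 for *Apod* (edgeR, 6 rats a group). None passed the call used here, a fold-change of at least 1.5 with a Benjamini-Hochberg adjusted p under 0.05 in edgeR's quasi-likelihood test, which called 0% of the 15320 transcripts tested. Adjusted p-values ran from 0.196 for *Ifitm3*, which had the lowest p of all transcripts tested, to 0.439 for *Tnfaip6*. At an unadjusted p under 0.05 there were 1355 transcripts, and the 6 were among them. All of the 6 but *Tnfaip6* had every TKA rat above every sham rat, as did 0.444% of all transcripts tested. This is a description, since the transcripts were drawn from this comparison. Exact two-sided permutation tests gave p = 0.00216 for each of these, the smallest that 6 rats against 6 can give, and p = 0.0152 for *Tnfaip6*.

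The call depended on the test. DESeq2 without a prior called all 6 transcripts, with adjusted p-values from 0.000196 for *Ifitm3* to 0.0317 for *Tnfaip6*, and called 0.335% of the transcripts it tested. With a prior on the fold-change it also called all 6, with 0.334% of transcripts called. Limma voom with sample weights called 1 transcript, none of these.

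Without TKA rats 2 and 6, the transcripts moved in different directions. The log2 fold-change over sham was 0.96 for *Ifitm3* and 2.35 for *Tnfaip6*, as large as before. It was 0.77 for *Il1r1*, 0.86 for *Steap4*, 0.75 for *Lrg1*, and 0.77 for *Apod*. The last 3 had been 1.39 to 1.78 with all rats. Without rat 2 alone, *Lrg1* was at 1.01. With neurofilament level as a covariate the values were 0.65 for *Il1r1*, 1.06 for *Ifitm3*, 0.58 for *Steap4*, 0.48 for *Lrg1*, 2.86 for *Tnfaip6*, and 0.41 for *Apod*, and the lowest adjusted p among them was 0.2 (edgeR). Neurofilament level was itself lower in TKA rats 1, 2, 5, and 6 than in any sham or naive rat. In both TKA comparisons this covariate can therefore take out part of the group difference.

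**Figure D3:**
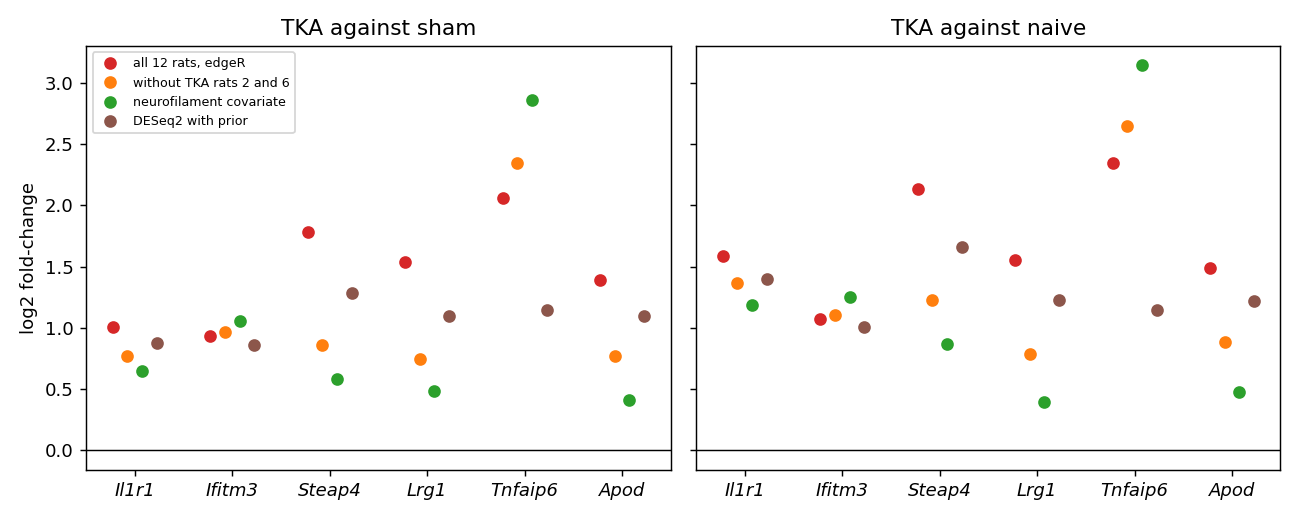
Log2 fold-change of each transcript in TKA against sham rats (left) and TKA against naive rats (right) with all 12 rats in edgeR, without TKA rats 2 and 6, with neurofilament level as a covariate, and with DESeq2 with a prior. *Steap4* against sham moved from 1.78 to 0.86 without rats 2 and 6, whereas *Ifitm3* stayed between 0.86 and 1.06 in these settings.

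TKA was compared with naive rats to read the whole procedure, anesthesia and wound included. These values share the TKA rats with those above and are not a second test. The interleukin-1 receptor *Il1r1* and *Ifitm3* rose, with log2 fold-changes of 1.58 ± 0.24 (SE, adjusted p = 0.0197, edgeR) and 1.07 ± 0.14 (adjusted p = 0.0149, edgeR). They were 2 of the 13 transcripts called, 0.0857% of the 15170 tested, and every TKA rat was above every naive rat for both. *Steap4* was at 2.13 ± 0.39 (adjusted p = 0.0671, edgeR), *Lrg1* at 1.55 ± 0.36 (adjusted p = 0.116, edgeR), *Tnfaip6* at 2.35 ± 0.75 (adjusted p = 0.173, edgeR), and *Apod* at 1.49 ± 0.33 (adjusted p = 0.115, edgeR). All of the 6 but *Tnfaip6* had no overlap of TKA and naive rats, against 1.27% of transcripts tested, and exact two-sided permutation tests gave p = 0.00216 for each of these and p = 0.013 for *Tnfaip6*. DESeq2 called all 6 with and without a prior, along with 2.6% and 3.18% of the transcripts it tested. DESeq2's estimate for *Tnfaip6*, low in counts, fell from 2.34 without to 1.14 with the prior.

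The calls against naive rats changed when single rats were left out. *Il1r1* missed the threshold when naive rat 1, 2, 4, 5, or 6 or TKA rat 1, 3, or 6 was left out, with adjusted p-values of 0.0525 to 0.0703 (edgeR) and log2 fold-changes of 1.51 to 1.63. *Ifitm3* missed it without naive rat 3, 5, or 6 or TKA rat 1, with adjusted p-values of 0.0502 to 0.0545 (edgeR) and log2 fold-changes of 1.04 to 1.06. In the other direction, *Steap4* (1.79, adjusted p = 0.0124, edgeR), *Lrg1* (1.04, adjusted p = 0.0234, edgeR), and *Apod* (1.11, adjusted p = 0.0244, edgeR) passed it once TKA rat 2 was left out, as did *Steap4* without TKA rat 5 (2.27, adjusted p = 0.0371, edgeR). Without both TKA rats 2 and 6, 5 of the 6 passed, at log2 fold-changes of 1.37 for *Il1r1*, 1.11 for *Ifitm3*, 1.23 for *Steap4*, 0.78 for *Lrg1*, and 0.88 for *Apod* (edgeR, adjusted p-values of 0.00143 to 0.028), while *Tnfaip6* was at 2.65 (adjusted p = 0.0988, edgeR). Leaving out the rats with the highest values thus lowered the estimates of *Steap4*, *Lrg1*, and *Apod* while their adjusted p-values fell. With neurofilament level as a covariate, *Ifitm3* passed (1.26, adjusted p = 0.00586, edgeR), *Il1r1* did not (1.19, adjusted p = 0.147, edgeR), and *Steap4*, *Lrg1*, and *Apod* were at 0.87, 0.39, and 0.48.

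**Figure D4:**
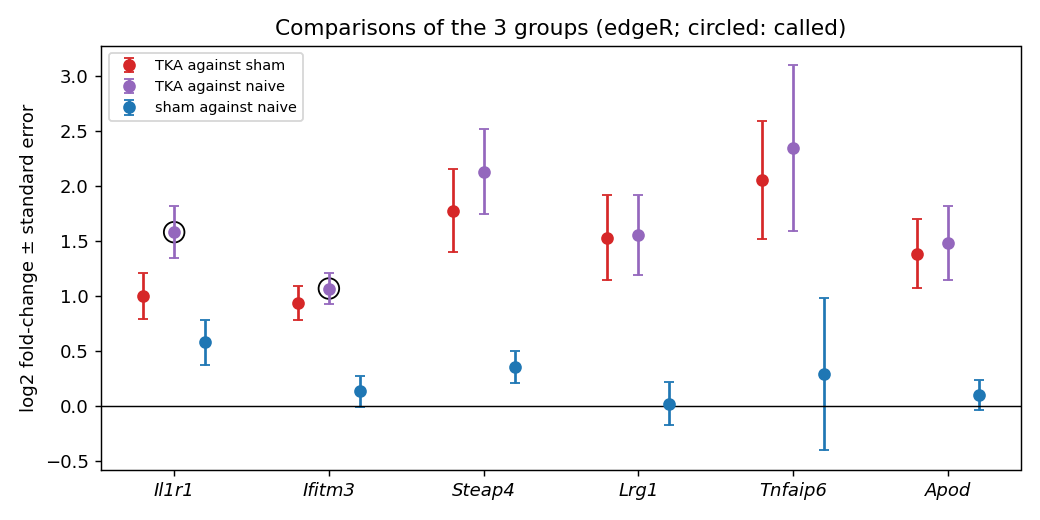
Log2 fold-change ± SE of each transcript in the 3 comparisons (edgeR, 6 rats a group), with a circle around values that passed the call. *Il1r1* (1.58) and *Ifitm3* (1.07) against naive rats are circled, and the sham against naive values lie between 0.03 and 0.58.

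Sham was compared with naive rats to read anesthesia and the skin incision alone. *Il1r1* had a log2 fold-change of 0.58 ± 0.20 (SE), with 4 of 6 sham rats above every naive rat, and *Steap4* one of 0.36 ± 0.14, with 5 of 6. Exact two-sided permutation tests gave p = 0.00649 for each. Neither passed over all transcripts (adjusted p = 0.998, edgeR), and 0% of the 15153 transcripts tested were called, with 625 at an unadjusted p under 0.05. DESeq2 without a prior called 5, none of these. *Ifitm3* (0.14 ± 0.14), *Lrg1* (0.03 ± 0.20), *Tnfaip6* (0.29 ± 0.69), and *Apod* (0.10 ± 0.14) had overlapping groups. None of the 6 had every sham rat above every naive rat, as 0.066% of transcripts did. The 11 named myelinating Schwann cell markers were all above 0 in this comparison, at a median log2 fold-change of 0.37, as were the 4 named muscle markers, at a median of 1.55, and the glial marker *Gfap*, at 1.05 ± 0.44 (SE). None of these was called, and their part in the *Steap4* and *Il1r1* values was not tested.

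Sex was examined with the labels and with TKA rat 4 entered as male. As labelled, the mean log2 difference of TKA from sham was 1.18 in males and 0.72 in females for *Il1r1*, 1.18 and 0.70 for *Ifitm3*, 1.62 and 1.35 for *Steap4*, 1.19 and 1.45 for *Lrg1*, 1.26 and 2.21 for *Tnfaip6*, and 1.36 and 1.03 for *Apod*. No transcript had an interaction of sex and surgery that passed (0% of 15320, with 406 at an unadjusted p under 0.05, edgeR), and the 6 had adjusted p-values of 1. The direction of the interaction, female minus male, depended on single rats for 4 of the 6. As labelled it was 1.30 ± 1.04 (SE) for *Tnfaip6*, -0.23 ± 0.80 for *Steap4*, -0.09 ± 0.75 for *Lrg1*, -0.44 ± 0.60 for *Apod*, -0.47 ± 0.39 for *Il1r1*, and -0.44 ± 0.30 for *Ifitm3*. With TKA rat 4 entered as male it was -0.28 for *Tnfaip6*, 0.28 for *Steap4*, 0.30 for *Lrg1*, -0.02 for *Apod*, -0.12 for *Il1r1*, and -0.62 for *Ifitm3*. With the labels kept and TKA rat 2 left out it was 0.91 for *Tnfaip6*, 0.65 for *Steap4*, 0.9985 for *Lrg1*, 0.25 for *Apod*, -0.23 for *Il1r1*, and -0.52 for *Ifitm3*, with adjusted p-values of 0.999 (edgeR).

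The rest of each pathway was read from lists of genes chosen with earlier results of these data known, of which only those named in the tables used could be followed. Those tables were sorted by p-value, so the named genes tend to be those that differed most. Many of them were highest in TKA rat 2 or 6, so each list is also given without those rats, a setting added after the values were seen. Over all transcripts tested the median log2 fold-change in TKA against sham rats was 0.01, or -0.02 without those rats, and none was called in either fit. In the interleukin-1, TNF, and NF-κB list, 13 of 16 genes other than *Il1r1* were above 0, with a median of 0.45, and 12 of 16, with a median of 0.35, without TKA rats 2 and 6. Among the TKA rats, 10 of these 16 genes were highest in rat 2 or 6. *Nfkbia*, the inhibitor that NF-κB itself induces, was at 1.08 ± 0.22 (SE) with all rats and 0.88 ± 0.15 without those rats, *Il33*, an interleukin-1 family cytokine, at 1.15 ± 0.35 and 0.38 ± 0.14, and the adaptor *Myd88* at 0.58 ± 0.20 and 0.65 ± 0.18. *Sigirr*, a receptor that dampens interleukin-1 signaling, was at 1.08 ± 0.30 and 0.83 ± 0.26, and *Tnfaip3*, the A20 protein that ends NF-κB signaling, at -0.16 ± 0.28 and -0.50 ± 0.27.

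In the interleukin-6, JAK-STAT, and C/EBP list, 11 of 13 genes were above 0, with a median of 0.52, and 11 of 13, with a median of 0.42, without TKA rats 2 and 6. The highest TKA rat was 2 or 6 for 6 of them. *Cebpd*, a factor of the acute-phase response, was at 0.98 ± 0.16 (SE) against sham rats (1.03 ± 0.17 without TKA rats 2 and 6) and rose against naive rats by 1.47 ± 0.16 (adjusted p = 0.00185, edgeR). Its level was 26.0 ± 6.57 in naive, 36.6 ± 9.54 in sham, and 72.2 ± 9.48 CPM in TKA rats (SD, n = 6), and its lowest TKA rat, at 61.4 CPM, was above its highest control, at 49.1 CPM. The feedback inhibitor *Socs3* was at 1.46 ± 0.39 against sham (1.74 ± 0.35 without those rats) and 2.10 ± 0.38 against naive rats (adjusted p = 0.0671, edgeR). The interleukin-6 receptor *Il6r* was at 1.15 ± 0.33 against sham rats and 0.45 ± 0.18 without TKA rats 2 and 6.

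In the interferon list, 7 of 9 genes other than *Ifitm3* were above 0 in TKA against sham rats, with a median of 0.24, and 7 of 9, with a median of 0.25, without TKA rats 2 and 6, which were the highest TKA rats for 0 of them. Its paralogs were lower than its 0.94, with *Ifitm2* at 0.52 ± 0.12 (SE) and *Ifitm1* at 0.24 ± 0.23. *Irf7*, a factor that interferon induces, was at -0.09 ± 0.20, and *Usp18*, an interferon-induced protease, at -0.24 ± 0.44 against sham and -1.22 ± 0.35 against naive rats. *Ifitm3* and its paralogs have similar sequences, and how reads shared by them were counted is not given in the sources used here.

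All 10 acute-phase genes other than *Lrg1* were above 0, with a median of 1.05, and 9 of 10, with a median of 0.82, without TKA rats 2 and 6, which were the highest TKA rats for 7 of them. The metal-binding *Mt2A* was at 1.72 ± 0.48 (SE) with all rats and 0.98 ± 0.38 without those rats, and the protease inhibitor *Timp1* at 0.62 ± 0.14 and 0.49 ± 0.13. *Lcn2*, a lipocalin that binds iron carriers of bacteria, was at 0.99 ± 0.58 and -0.05 ± 0.44. *Timp1*, like *Steap4*, was at an adjusted p of 0.0671 against naive rats (edgeR). In the hyaluronan list 6 of 8 genes other than *Tnfaip6* were above 0, with a median of 1.04, and all 6 were highest in TKA rat 2. Without TKA rats 2 and 6 the median was 0.48, with 7 of 8 above 0, and the hyaluronan receptor *Lyve1* went from 1.21 ± 0.32 to 0.74 ± 0.28. This list shares *Dcn* and *Lum* with the fibroblast markers, whose sum was highest in those rats. *Has1*, a hyaluronan synthase, was at -0.08 ± 0.63 with all rats and 0.19 ± 0.66 without them. In the iron list all 4 genes other than *Steap4* were above 0, with a median of 0.80, and 3 of 4, with a median of 0.24, without TKA rats 2 and 6. In the lipid carrier list 3 of 5 other than *Apod* were above 0, with a median of 0.55, and 1 of 5, with a median of -0.10, without those rats. Against naive rats, with all rats in the fit, the genes called in any of these lists were *Il1r1*, *Ifitm3*, and *Cebpd*.

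**Figure D5:**
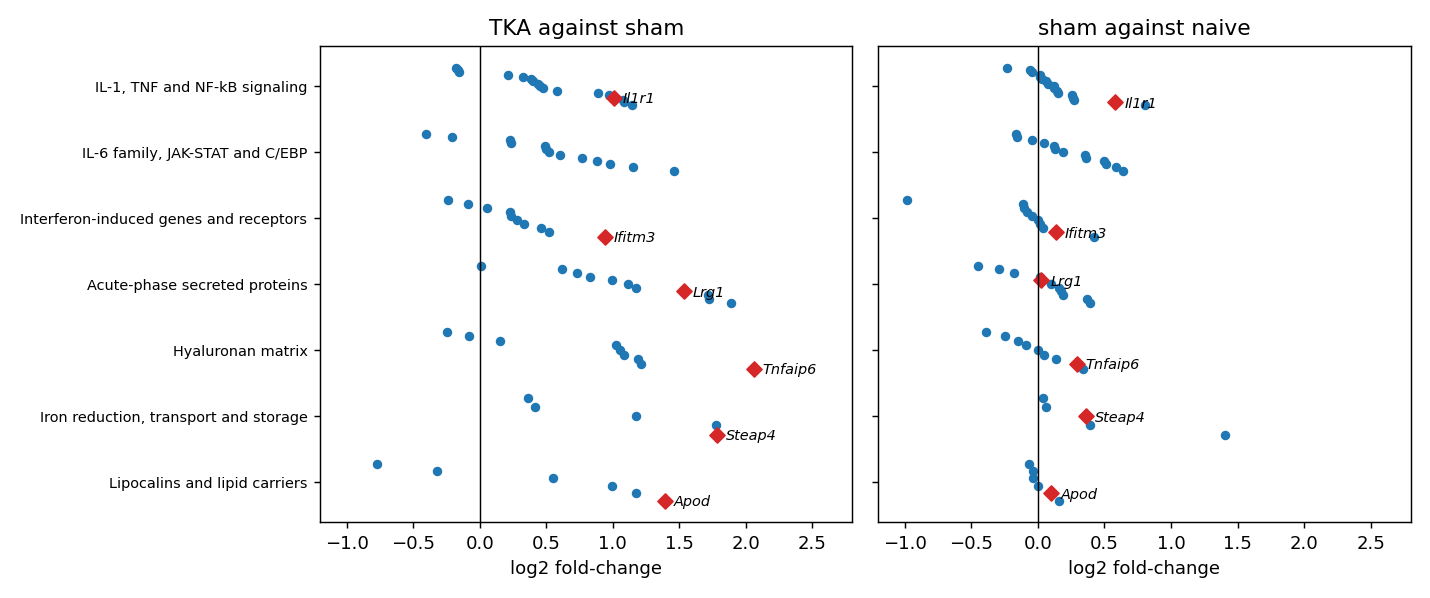
Log2 fold-change of the named genes of 7 lists in TKA against sham rats (left) and sham against naive rats (right). Each point is 1 gene and the red diamonds are the 6 transcripts described here. All acute-phase points lie above 0 on the left, where their median without *Lrg1* was 1.05, against 0.13 on the right.

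The named transcripts most like each of the 6 were found among 16048 transcripts. Likeness was the mean absolute difference between log2 levels over 18 rats, each transcript centered on its mean over the 6 naive rats. The size of a shift from naive rats thus counted in this distance as well as the pattern over rats. *Ifitm3* was nearest to the tubulin *Tubb6* (0.22) and *Il1r1* to the kinase *Srpk3* (0.27) and to *Cebpd* (0.30). *Steap4* was nearest to the collagen *Col2a1* (0.30) and to *Apod* (0.32), *Lrg1* to the annexin *Anxa3* (0.23) and to *Apod* (0.31), and *Apod* to *Il33* (0.21). *Tnfaip6* had no near neighbor, with *Sh2b1* nearest at 0.86, and the nearest of the other 5, *Il1r1*, was at 1.12. *Tnfaip6* had only 0 to 30 counts in naive and 8 to 34 in sham rats. The part of such low counts in its distances was not tested. *Ifitm3* was 0.39 from its nearest member, *Apod*.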

How the data were processed

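RNA was sequenced from DRGs of 6 naive, 6 sham, and 6 TKA rats, grouped by their labels, with each rat taken as 1 sample. Paired-end reads of 150 bp had been aligned by the authors to rn6, a rat genome build, using HISAT2. The deposited values are raw featureCounts counts for each Ensembl transcript and were not normalized. Versions, the annotation release, and the strand and overlap settings are not given in the sources used here, so reads shared by isoforms or paralogs are uncertain. The authors tested with DESeq2 at these same thresholds. Every column named 1 rat, and no pair of libraries held the same counts.

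Transcript names were taken from the study's tables, which in the shortened copy used here named 3837 of 41078 transcripts. The members, lists, and alternatives were chosen with earlier results of these data known. Named genes were the 6 members, every listed gene with a name, and the 3 nearest named transcripts of each member.

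Only the 12 rats of a comparison entered its fit, made in R 4.3.3 with edgeR 4.0.16 (filterByExpr, TMM, quasi-likelihood F test, Benjamini-Hochberg adjustment). A call needed a fold-change of 1.5 or more and an adjusted p under 0.05. SEs were obtained by dividing the log2 fold-change by the root of F. Levels shown by rat are CPM with TMM over 18 rats, and log2 CPM used a prior count of 2. Single transcripts were also tested with an exact two-sided permutation test of mean log2 CPM over 924 splits of 12 rats. The p-values weigh a difference between groups against the spread between these rats. The scripts were tested on simulated counts.

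Other settings were DESeq2 1.42.0, run both without and with a prior, limma 3.58.1 voom with sample quality weights, RLE size factors, no filter and a mean count of at least 50, labelled sex or neurofilament level as a covariate, a fit of all 18 rats together, a block for rat number, TKA rats 2 and 6 left out, and each rat left out in turn. List values without TKA rats 2 and 6 were added after the data were seen. Gene set tests, behavior, and serum cytokines were not analysed here, and values of some listed genes are not reported here.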

Additional observations from a re-analysis of the deposited data

Results flagged for a closer look

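Among the 18 combinations of transcript and group examined for a rat far from the other 5, 1 was found. *Ifitm3* in sham rat 1 was at 4.47 log2 CPM, below the next sham rat at 5.03. Chance gives about 0.9 such groups of 18.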

How the results depend on the processing

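Log2 fold-changes in the TKA comparisons kept their direction for all 6 transcripts in every setting run, while calls depended on the tool. In TKA against sham rats, edgeR called 0 transcripts, DESeq2 67 without and 58 with a prior, voom 1, and all 18 rats in one fit 11. DESeq2 without a prior called *Il1r1* (1.003), *Ifitm3* (0.93), *Steap4* (1.78), *Lrg1* (1.54), *Tnfaip6* (2.06), and *Apod* (1.39), and with a prior their values were 0.88, 0.86, 1.29, 1.09, 1.15, and 1.10. One fit of 18 rats also called *Ifitm3* (0.94) and *Steap4* (1.78). In TKA against naive rats, calls numbered 13 in edgeR, 449 and 355 in DESeq2 without and with a prior, 123 in voom, 116 in one fit of 18 rats, 39 with neurofilament level as a covariate, 105 without TKA rats 2 and 6, and 3 to 113 with 1 rat left out. There DESeq2 also called *Steap4* (2.13 without and 1.66 with a prior), *Lrg1* (1.56 and 1.23), *Tnfaip6* (2.34 and 1.14), and *Apod* (1.48 and 1.22). *Steap4* was also called by voom (1.41), without a filter (2.12), in one fit of 18 rats (2.13), and without TKA rats 2 and 6 (1.23), as were *Lrg1* by voom (0.85), in one fit (1.55), and without those rats (0.78), and *Apod* likewise (1.004, 1.49, and 0.88). *Il1r1* was not called with neurofilament level as a covariate (1.19). With 1 rat left out, values against naive rats ran from 1.42 to 1.70 for *Il1r1*, 1.003 to 1.18 for *Ifitm3*, 1.79 to 2.27 for *Steap4*, 1.04 to 1.68 for *Lrg1*, and 1.11 to 1.62 for *Apod*. In sham against naive rats DESeq2 without a prior made 5 calls. *Lrg1*, near 0 there, ran from -0.068 to 0.15 with 1 rat left out (-0.01 without naive rat 4 or 6, -0.03 without naive rat 5, -0.02 without sham rat 2, and -0.068 without sham rat 1), and *Apod* from -0.0058 without naive rat 6 to 0.20 without naive rat 1. *Tnfaip6* had too few counts for the mean of 50 in that comparison. The causes were not tested.

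With the rat number as a block, TKA against naive rats gave 1 call, with *Il1r1* at 1.56 and *Ifitm3* at 1.07 (adjusted p = 0.105 for each, edgeR) not called, and *Lrg1* in sham against naive rats was at -0.002. Same-numbered rats did not deviate together, with correlations of -0.05 to 0.22 and over 0.1 in 1, 0, and 1 of 6 pairs in the 3 comparisons, so the numbers were not taken as pairs. Depth limits *Tnfaip6* most, with 0 to 34 counts per control rat.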
